A study of Homo sapiens with 12 samples.

Results

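The 37 genes of the human mitochondrial genome were followed in OPM2 cells, a long-established human myeloma line, myeloma being a cancer of plasma cells. Members were the identifiers whose symbol starts with MT-, which gave 13 mRNAs, 2 rRNAs and 22 tRNAs among 63152 counted gene identifiers, and 389 nuclear pseudogene copies of these genes were left out. Each of 4 groups held 3 libraries, labelled as biological triplicates and collected 2 h after treatment. The groups were 18DS at 250 nM, a chimeric small molecule described in the series title as inhibiting both PI3K and BET proteins, BKM120 (buparlisib, a PI3K inhibitor) at 1 µM, JQ1 (a BET bromodomain inhibitor) at 250 nM, and DMSO, the vehicle. The libraries were QuantSeq 3′ mRNA libraries, which are primed with oligo-dT and count reads near 3′ ends. No library received JQ1 and BKM120 together, and only 1 cell line at 1 time was measured.

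Human mitochondrial DNA is transcribed from both strands into long precursors that carry rRNAs, mRNAs and tRNAs in a row, with most mRNAs bounded by tRNAs. The enzymes RNase P and RNase Z excise the tRNAs, which frees the mRNAs and rRNAs between them, and the mitochondrial poly(A) polymerase then adds short tails to most mRNAs and to the rRNAs. All 13 mRNAs encode subunits of the respiratory chain or of ATP synthase, and the rRNAs and tRNAs serve only the translation of those mRNAs inside the organelle. Myeloma cells secrete large amounts of antibody or light chain and rely on oxidative metabolism for part of their energy.

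The annotated ends of the mRNAs are given here, and they need not be the ends that the tailing enzyme meets. In the GENCODE release 29 transcripts (GRCh38 reference, not read from these libraries), 5 of the 13 mRNAs ended in a lone T after the last whole codon and 1 (MT-ND1) in TA, so that the tail itself completes the stop codon. Another 3 ended in TAA, 2 in TAG, 1 (MT-CO1) in AGA and 1 (MT-ND6) in AGG. The last 30 bases of 6 mRNAs on which the results below turn are shown 5′ to 3′, with the partial or whole terminal codon in capitals.
MT-ND2: ctatctccccttttatactaataatcttaT
MT-CO3: tgtatgtctccatctattgatgagggtctT
MT-ND1: tacaatctccagcattccccctcaaaccTA
MT-CYB: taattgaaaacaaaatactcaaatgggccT
MT-CO2: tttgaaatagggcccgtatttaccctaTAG
MT-CO1: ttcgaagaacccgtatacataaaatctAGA

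The tRNA genes were 59 to 75 bases long, shorter than a 75-base read for most of them, so that a read counted to a tRNA can come from a mature tRNA, an unprocessed precursor or a neighbouring transcript that runs across it. The counts cannot tell these apart. The whole genes of 4 tRNAs with higher counts in several comparisons (for glycine, aspartate, lysine and serine) and of MT-TC, the cysteine tRNA, which passed no test, are shown 5′ to 3′ from the same release, with the longest run of A in capitals.
MT-TG: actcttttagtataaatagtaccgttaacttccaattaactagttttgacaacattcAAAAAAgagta
MT-TD: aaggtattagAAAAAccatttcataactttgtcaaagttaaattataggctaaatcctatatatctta
MT-TK: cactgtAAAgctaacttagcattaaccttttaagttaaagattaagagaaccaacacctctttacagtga
MT-TS1: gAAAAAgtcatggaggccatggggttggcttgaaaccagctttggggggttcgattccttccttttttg
MT-TC: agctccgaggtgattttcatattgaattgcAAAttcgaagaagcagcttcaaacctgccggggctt
On the annotated strand, the minus strand for MT-TS1 and MT-TC, the run of A was 6 bases in MT-TG and 5 in MT-TD and MT-TS1. It was 3 in MT-TK and MT-TC, so these genes differ in the A-rich stretches to which an oligo-dT primer can anneal. MT-TL2, a leucine tRNA gene not shown, also had a run of 5 and passed no test. RNA of the opposite strand would hold other runs. Whether priming inside the transcripts bears on the counts was not tested.

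Total counts were 5882214 to 7292895 per 18DS library, 5563788 to 6883854 per BKM120 library, 5501895 to 7692013 per JQ1 library and 5940610 to 6594995 per DMSO library. All 37 members passed the expression filter that 13180 genes passed, and the lowest count of any member in any library was 27. The 7 plasma cell markers SDC1, TNFRSF17, IRF4, XBP1, PRDM1, MZB1 and JCHAIN were each above 0 in all 12 libraries. They summed to 3863 to 4432 CPM (counts scaled to a common library total) in 18DS, 4661 to 4814 CPM in BKM120, 4399 to 4704 CPM in JQ1 and 4963 to 5032 CPM in DMSO, so every DMSO library lay above every library with a compound. The 4 T and NK cell markers summed to at most 0.460 CPM, with CD3D and NKG7 at 0 throughout, the 4 myeloid markers to 0.686 to 3.98 CPM and the 4 epithelial and fibroblast markers to at most 0.510 CPM. Of the red cell genes HBA1 was at 0, and HBB had 26.2 to 30.2 CPM in 18DS, 35.05 to 42.1 in BKM120, 29.1 to 33.8 in JQ1 and 37.8 to 52.04 in DMSO. The part of these marker shifts in the results below was not tested. As a check of the treatments, MYC was lower in 18DS (log2 fold change -3.51, SE 0.20) and in JQ1 (-3.53, SE 0.20) than in DMSO, and higher in BKM120 (0.81, SE 0.13). KLF2, a target of FOXO factors that PI3K signalling restrains, named after its values were seen, was higher in 18DS (1.64, SE 0.16) and BKM120 (2.80, SE 0.16) than in DMSO and was not called in JQ1 (0.25, SE 0.17).

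Mitochondrial genes took 6.95, 7.60 and 7.06% of all counts in the 18DS libraries, 7.41, 6.99 and 7.65% in the BKM120 libraries, 6.61, 7.04 and 6.94% in the JQ1 libraries and 6.97, 6.59 and 6.56% in the DMSO libraries. The widest 95% Wilson interval of these shares, which covers counting error only, reached 0.0221 percentage points to either side, so the libraries of 1 group differed by more than counting error. All 3 BKM120 libraries lay above all 3 DMSO libraries, whereas the lowest 18DS library lay just under the highest DMSO library. The share averaged 7.20% ± 0.350 in 18DS, 7.35% ± 0.333 in BKM120, 6.87% ± 0.227 in JQ1 and 6.71% ± 0.230 in DMSO (SD, n = 3 each). In bulk RNA a higher share cannot be told apart from less nuclear-encoded RNA per cell, and likewise fewer cells of a type and less RNA per cell cannot be told apart.

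**Figure D1:**
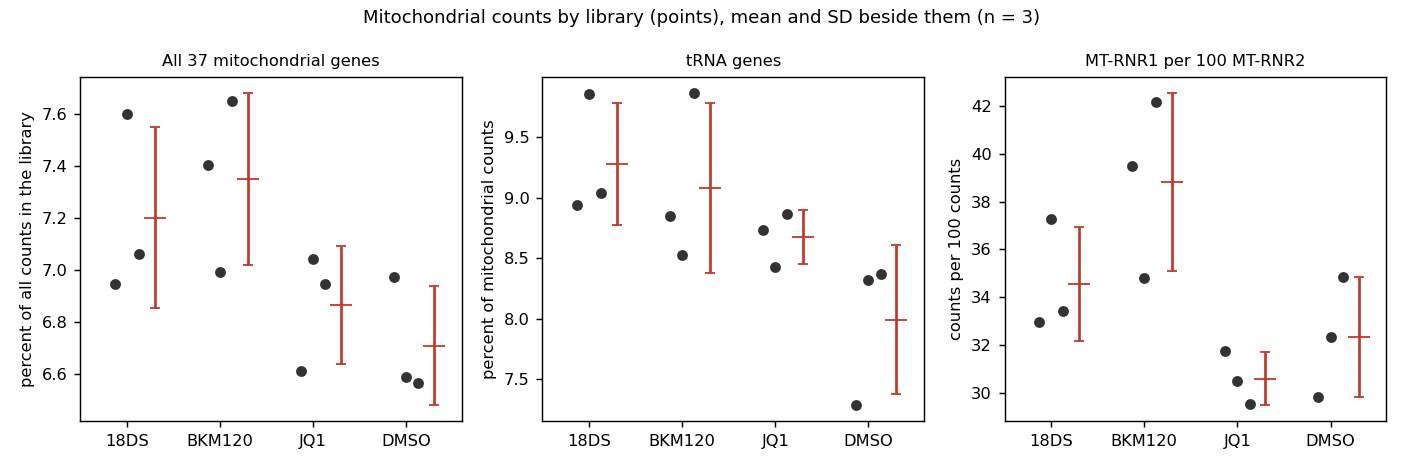
Each point is 1 library and the bar beside each group is the mean with its SD (n = 3); the panels give, from left to right, all mitochondrial counts as a percent of the library, tRNA counts as a percent of mitochondrial counts, and MT-RNR1 counts per 100 MT-RNR2 counts. In each panel 18DS replicate 2 and BKM120 replicate 3 are the highest libraries of their groups, and DMSO replicate 1 has the lowest tRNA share at 7.28%.

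Within the mitochondrial counts, the part taken by tRNA genes was lowest in DMSO. The tRNAs held 8.94, 9.86 and 9.04% of mitochondrial counts in 18DS, 8.85, 8.53 and 9.87% in BKM120, 8.73, 8.43 and 8.86% in JQ1 and 7.28, 8.32 and 8.37% in DMSO. Every library with any of the 3 compounds thus had a higher tRNA share than every DMSO library, and the groups with compounds overlapped one another. The mRNAs held 71.6, 69.7 and 71.9% in 18DS, 69.9, 70.2 and 67.2% in BKM120, 70.4, 70.3 and 71.2% in JQ1 and 71.5, 70.1 and 69.96% in DMSO, and these ranges overlapped apart from the low value of BKM120 replicate 3. The rRNAs held 19.4, 20.5 and 19.1% in 18DS and 21.3, 21.3 and 22.97% in BKM120. They held 20.9, 21.3 and 19.9% in JQ1 and 21.2, 21.5 and 21.7% in DMSO. All 3 18DS libraries thus lay below all 3 DMSO libraries in rRNA share, whereas BKM120 and JQ1 overlapped with DMSO. The ratio of the small to the large rRNA, MT-RNR1 per 100 MT-RNR2 counts, was 32.97, 37.3 and 33.4 in 18DS, 39.5, 34.8 and 42.2 in BKM120, 31.8, 30.5 and 29.5 in JQ1 and 29.9, 32.3 and 34.9 in DMSO.

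Libraries stood apart within their groups in these measures. 18DS replicate 2 and BKM120 replicate 3 had the highest mitochondrial share, tRNA share and rRNA ratio of their groups, and 1 or the other of them held the highest level of 25 of the 37 members (12 in 18DS replicate 2 and 13 in BKM120 replicate 3). DMSO replicate 1 held the lowest level of 16 members, 14 of them tRNAs. MALAT1 and NEAT1, RNAs that stay in the nucleus, summed to 4278 to 4911 CPM in 18DS, 4099 to 4465 CPM in BKM120, 4883 to 5409 CPM in JQ1 and 3541 to 4681 CPM in DMSO, where DMSO replicate 1 was the highest. The part of RNA make-up in the results below was not tested, and counts of called members are given without these libraries where that matters.

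In the DMSO libraries, where counts are divided by gene length, MT-CO3 (cytochrome c oxidase subunit 3) had the highest level, 18400.0 ± 426 CPM per kb (SD, n = 3). MT-ND3 with 10870.0 ± 321 and MT-CO2 with 9739 ± 142 CPM per kb followed among mRNAs, and MT-ND5, the longest mRNA, was lowest with 439 ± 28.9 CPM per kb. Among tRNAs, MT-TL1, one of the leucine tRNAs, had 14190.0 ± 2330.0 CPM per kb and MT-TS1 14140.0 ± 1000.0 CPM per kb, which did not differ beyond their spread, while MT-TL2, the other leucine tRNA, had 63.8 ± 6.81 CPM per kb. The large rRNA MT-RNR2 had 6982 ± 287 and the small rRNA MT-RNR1 3685 ± 152 CPM per kb. A 3′ library counts tags near priming sites rather than along a transcript, so division by length favours the short tRNA genes in this order.

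Against DMSO, 18DS raised 15 of the 37 mitochondrial genes and lowered 0 (edgeR quasi-likelihood test, Benjamini-Hochberg adjusted p under 0.05 over all tested genes), where 9.95% of all tested genes were called higher, 11.0% lower and 21.0% in either direction. BKM120 raised 11 and lowered 0, where 4.07% of all tested genes were called higher and 8.21% in either direction. JQ1 raised 2 and lowered 0, where 2.63% were called higher and 6.08% in either direction. The 3 libraries of the compound did not overlap with the 3 DMSO libraries in 20 members for 18DS (35.3% of all tested genes), 22 for BKM120 (28.2%) and 15 for JQ1 (25.3%). The median log2 fold change of the 37 genes was 0.26 in 18DS, 0.25 in BKM120 and 0.12 in JQ1, beside medians of -0.0033, 0.00014 and 0.0030 over all tested genes. These comparisons share the 3 DMSO libraries, and the members share precursor transcripts, so they are not independent of each other. The BKM120 count rests on single libraries, being 5 without BKM120 replicate 1 and 5 without BKM120 replicate 3. It was 6 without DMSO replicate 1 and 7 without DMSO replicate 2. Calls over all tested genes fell in the same fits, from 1082 to 552, 487, 531 and 776. The JQ1 count was 1 without DMSO replicate 1 or JQ1 replicate 1 and 4 without 18DS replicate 2. In these fits 609, 564 and 1021 of all tested genes were called, beside 801 with all libraries.

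**Figure D2:**
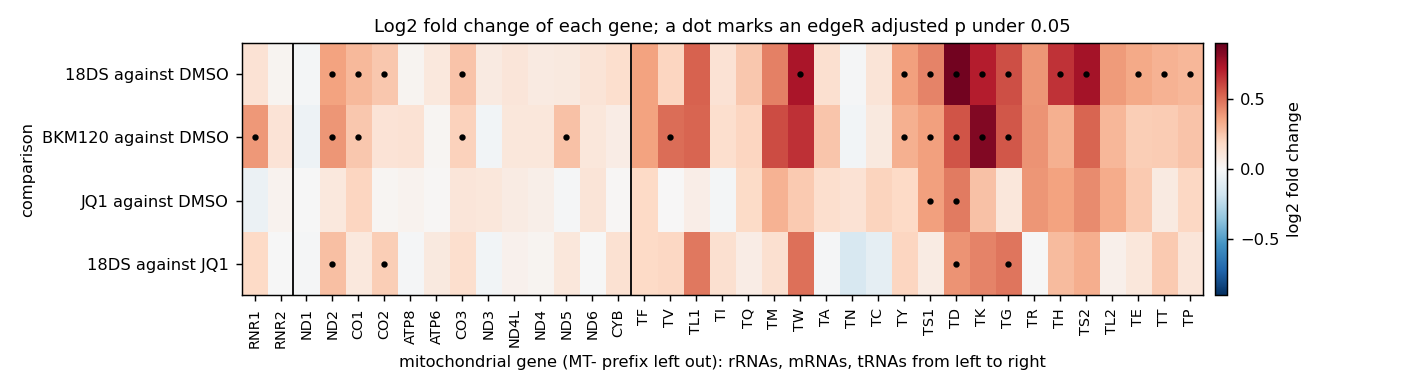
Each cell gives the log2 fold change of 1 mitochondrial gene (columns, rRNAs, mRNAs and tRNAs from left to right) in 1 comparison (rows), red for higher and blue for lower in the first-named group, and a black dot marks an edgeR adjusted p under 0.05. Dots number 15 for 18DS against DMSO, 11 for BKM120 against DMSO, 2 for JQ1 against DMSO and 4 for 18DS against JQ1, and all lie on red cells.

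Since 18DS and BKM120 both inhibit PI3K and JQ1 and DMSO do not, the 6 libraries with a PI3K inhibitor were compared with the 6 without one, with BET inhibition balanced between the sides. Here 20 of 37 mitochondrial genes were higher and 0 lower, where 8.35% of all tested genes were called higher, 8.73% lower and 17.1% in either direction. By class these 20 were 14 of 22 tRNAs, 5 of 13 mRNAs and 1 of 2 rRNAs. The 6 libraries did not overlap with the other 6 in 8 members (4.17% of all tested genes), and the median log2 fold change was 0.24 for tRNAs, 0.069 for mRNAs and -0.0051 for all tested genes. The contrast of the 6 libraries with a BET inhibitor (18DS and JQ1) against the 6 without one called 4 members higher, all tRNAs, and 0 lower, where 7.48% of all tested genes were called higher, 10.3% lower and 17.7% in either direction, and 0 members had sides without overlap (6.10% of all tested genes). The 250 nM of 18DS and the 1 µM of BKM120 are different doses, and their doses are pooled in the first contrast. Without the 2 libraries that stood apart, 18DS replicate 2 and BKM120 replicate 3, the count for PI3K inhibition was 14. In that fit 1524 of all tested genes were called, beside 2252 with all libraries.

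The cytochrome c oxidase genes, which encode the catalytic core of complex IV, were the mRNA group in which every member rose with PI3K inhibition (3 of 3), and they also rose in 18DS against DMSO (3 of 3). Without both libraries that stood apart the first count was 2 of 3, since MT-CO1 had 0.13 (edgeR adjusted p = 0.0581). In BKM120 against DMSO 2 of 3 were called, and MT-CO2 (0.12) was not. The MT-CO3 call in BKM120 (0.21) ended with scaling by library totals only and with the 2 groups compared alone. It also ended without BKM120 replicate 1 or 3, DMSO replicate 2 or both libraries that stood apart (edgeR adjusted p up to 0.125). MT-CO3 (ENSG00000198938) had 16848, 16833 and 16864 CPM in the 18DS libraries and 16560.3, 15746 and 16420.5 CPM in the BKM120 libraries. MT-CO3 had 15145, 14886 and 15480.5 CPM in the JQ1 libraries and 14262, 13714 and 14281 CPM in the DMSO libraries. The 6 libraries with a PI3K inhibitor all lay above the other 6, and the 3 DMSO libraries lay below the 3 JQ1 libraries. This gave a log2 fold change of 0.26 for 18DS against DMSO (SE 0.060, edgeR adjusted p = 0.00182) and 0.18 for the 6 against 6 libraries (SE 0.042, edgeR adjusted p = 0.00324).

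MT-CO2 (ENSG00000198712), which carries the copper site that accepts electrons from cytochrome c, had 7102, 8227 and 7722 CPM in the 18DS libraries and 7072, 7114 and 7067 CPM in the BKM120 libraries. MT-CO2 had 6517, 6808 and 6435 CPM in the JQ1 libraries and 6467, 6392 and 6660.2 CPM in the DMSO libraries. The groups with and without a PI3K inhibitor did not overlap, and 18DS replicate 2 was the highest library. Its log2 fold change was 0.17 for PI3K inhibition (SE 0.045, edgeR adjusted p = 0.00725), and it was 0.018 for JQ1 against DMSO (95% interval -0.11 to 0.15), which passed no threshold.

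MT-CO1 (ENSG00000198804), the subunit with the haem and copper centre where oxygen is reduced, had 1805, 2052 and 1786 CPM in the 18DS libraries and 1816, 1792 and 1852 CPM in the BKM120 libraries. MT-CO1 had 1684, 1818 and 1777 CPM in the JQ1 libraries and 1502, 1525 and 1579 CPM in the DMSO libraries. All 9 libraries with a compound lay above the 3 DMSO libraries. Its log2 fold change was 0.29 for 18DS (SE 0.067, edgeR adjusted p = 0.00155) and 0.25 for BKM120 (SE 0.067, edgeR adjusted p = 0.0178), and JQ1 missed the threshold at 0.20 (SE 0.067, edgeR adjusted p = 0.0750). The BKM120 call was lost without BKM120 replicate 1 or 3 or DMSO replicate 1 or 2 (edgeR adjusted p up to 0.0878).

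Of the 7 complex I (NADH dehydrogenase) mRNAs, MT-ND2 and MT-ND5 rose with PI3K inhibition and the other 5 passed no test in it. MT-ND2 (ENSG00000198763), a membrane-arm subunit, had 3919, 4801 and 3948 CPM in the 18DS libraries and 4378, 3792 and 4833 CPM in the BKM120 libraries. MT-ND2 had 3346, 3549 and 3608 CPM in the JQ1 libraries and 3241, 3338 and 3276 CPM in the DMSO libraries. The 6 libraries with a PI3K inhibitor all lay above the other 6, with 18DS replicate 2 and BKM120 replicate 3 the highest. The mean was 4222 ± 501 CPM in 18DS, 4334 ± 522 in BKM120, 3501 ± 137 in JQ1 and 3285 ± 48.8 in DMSO (SD, n = 3 each). The log2 fold change was 0.34 for PI3K inhibition (SE 0.056, edgeR adjusted p = 9.36e-05), the highest among the mRNAs.

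MT-ND5 (ENSG00000198786), another membrane-arm subunit, had 776, 859 and 844 CPM in the 18DS libraries and 932, 895 and 963 CPM in the BKM120 libraries. MT-ND5 had 731, 793 and 787 CPM in the JQ1 libraries and 828, 749 and 751 CPM in the DMSO libraries. Only the BKM120 libraries lay above the rest, and the 18DS and DMSO libraries overlapped. Against DMSO it had a log2 fold change of 0.26 for BKM120 (SE 0.069, edgeR adjusted p = 0.0144), and one of 0.090 for 18DS (95% interval -0.050 to 0.23), which passed no threshold. The BKM120 call was lost if BKM120 replicate 1 or 3 or DMSO replicate 2 or 3 was left out (edgeR adjusted p up to 0.0948).

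MT-ND1 (ENSG00000198888), the core subunit next to the quinone site, had 4709.6, 4788 and 4747 CPM in the 18DS libraries and 4738, 4738 and 4463 CPM in the BKM120 libraries. MT-ND1 had 4559, 4899.9 and 4903 CPM in the JQ1 libraries and 5436, 4523 and 4440.2 CPM in the DMSO libraries. DMSO replicate 1 was the highest library and the 4 groups overlapped, with a log2 fold change of -0.016 for 18DS against DMSO (95% interval -0.16 to 0.13). MT-ND3 had a log2 fold change of -0.024 (95% interval -0.12 to 0.075) with PI3K inhibition, MT-ND4 one of 0.064 (-0.041 to 0.17), MT-ND4L one of 0.069 (-0.037 to 0.18) and MT-ND6 one of 0.052 (-0.052 to 0.16). MT-ND6 is the only mRNA on the minus strand, next to MT-ND5, and without the strand setting its reads cannot be told apart from transcripts of the other strand. The upper bounds of these 5 genes lay below the value of MT-ND2, although all encode parts of 1 complex.

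MT-CYB (ENSG00000198727), the mitochondrially encoded subunit of complex III, had 3305, 3741 and 3487 CPM in the 18DS libraries and 3296, 3286 and 3329 CPM in the BKM120 libraries. MT-CYB had 3024, 3279 and 3259 CPM in the JQ1 libraries and 3491, 3006 and 2977 CPM in the DMSO libraries. Every 18DS and BKM120 library lay above every JQ1 library, whereas the DMSO libraries overlapped with those of each other group. The log2 fold change with PI3K inhibition was 0.10 (95% interval 0.0030 to 0.20, edgeR adjusted p = 0.152). The ATP synthase mRNAs did not pass the test in any comparison, with a log2 fold change for PI3K inhibition of 0.050 in MT-ATP6 (95% interval -0.052 to 0.15) and 0.060 in MT-ATP8 (-0.11 to 0.23). These 2 genes overlap on the genome, and MT-ATP6 also overlaps MT-CO3, so reads at their junctions may have been split or dropped in counting.

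The stop codons printed above did not separate the mRNAs that rose. Of the 6 mRNAs with a partial stop codon 2 rose with PI3K inhibition (median log2 fold change 0.083), and of the 7 with a whole one 3 rose (median 0.069). The share called higher over all tested genes was 8.35%.

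The small rRNA MT-RNR1 (ENSG00000211459) had 3431, 4352 and 3466 CPM in the 18DS libraries and 4422, 3891 and 5196 CPM in the BKM120 libraries. MT-RNR1 had 3331, 3493 and 3129 CPM in the JQ1 libraries and 3294, 3379 and 3629 CPM in the DMSO libraries. BKM120 replicate 3 was the highest library, all 3 BKM120 libraries lay above the DMSO and JQ1 libraries, and the 18DS libraries overlapped with those of every other group. The log2 fold change was 0.39 for BKM120 against DMSO (SE 0.098, edgeR adjusted p = 0.0190) and 0.13 for 18DS against DMSO (95% interval -0.080 to 0.33), which passed no threshold. Leaving out BKM120 replicate 1 or 3 or DMSO replicate 1 or 2 ended the BKM120 call (edgeR adjusted p up to 0.149), and leaving out DMSO replicate 1 ended the call with PI3K inhibition. The large rRNA MT-RNR2, transcribed from the same precursor, had a log2 fold change of 0.12 for BKM120 (95% interval -0.013 to 0.26) and 0.025 for 18DS (-0.11 to 0.16), neither called.

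Among the 22 tRNA genes, 18DS raised 11, BKM120 raised 6 and JQ1 raised 2 against DMSO, and 0 fell in any of these. Of all tested genes 9.95%, 4.07% and 2.63% were called higher in these comparisons, and 11.0%, 4.14% and 3.45% lower. The glycine tRNA gene MT-TG (ENSG00000210164), which lies between MT-CO3 and MT-ND3, had 638, 733 and 689 CPM in the 18DS libraries and 696, 589.9 and 742 CPM in the BKM120 libraries. MT-TG had 504, 447 and 527 CPM in the JQ1 libraries and 412, 466 and 501 CPM in the DMSO libraries. The 6 libraries with a PI3K inhibitor all lay above the 6 others. Means were 687 ± 47.1 CPM in 18DS, 676 ± 78.1 in BKM120, 493 ± 41.2 in JQ1 and 459.6 ± 45.2 in DMSO (SD, n = 3 each). The log2 fold change was 0.52 with PI3K inhibition (SE 0.060, edgeR adjusted p = 5.70e-07), a 1.43-fold difference, and 0.10 for JQ1 against DMSO (95% interval -0.073 to 0.28).

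**Figure D3:**
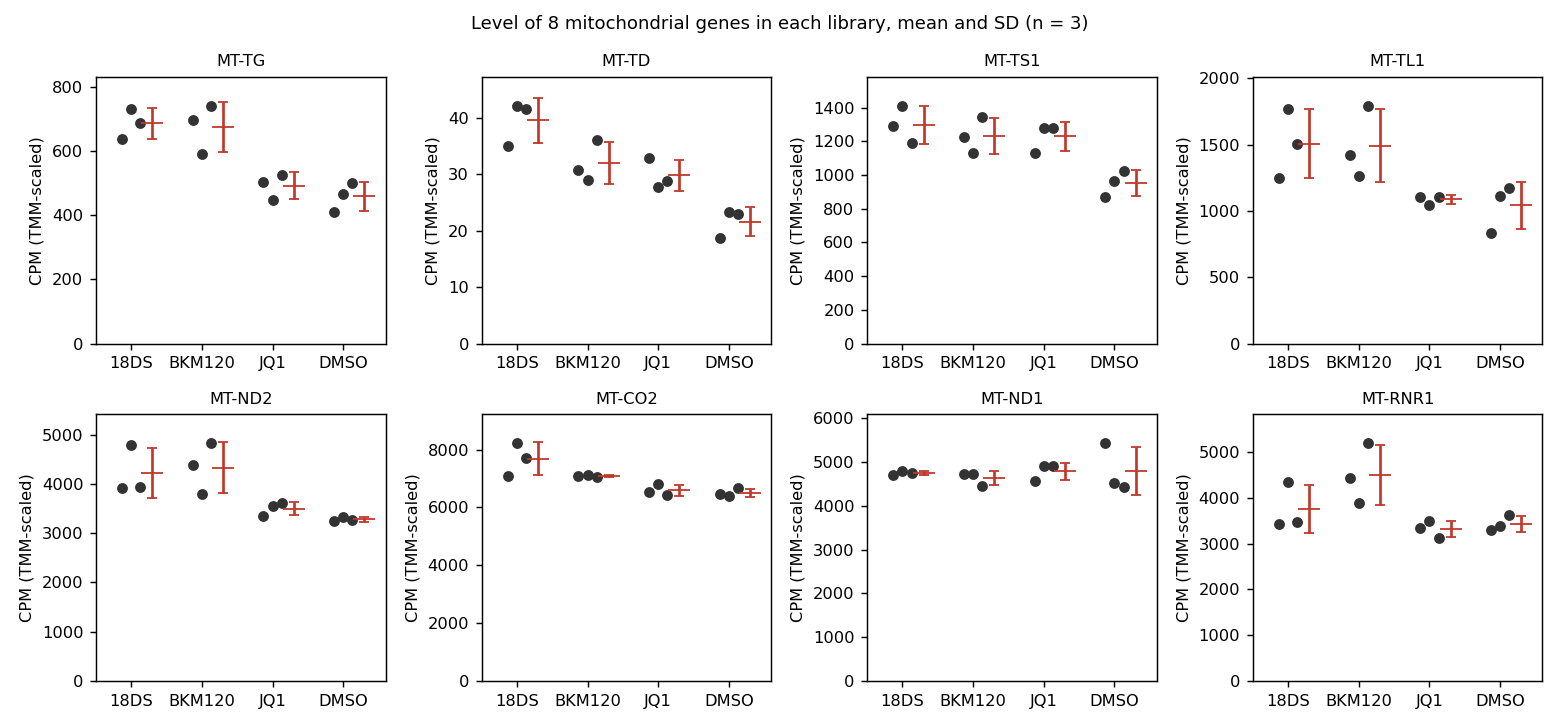
Each panel gives the level of 1 gene in TMM-scaled CPM (linear axis from 0), with 1 point per library and the group mean with its SD beside the points (n = 3). MT-TG, MT-ND2 and MT-CO2 are higher in every 18DS and BKM120 library than in every JQ1 and DMSO library, MT-TD and MT-TS1 are higher in every compound library than in DMSO, and MT-ND1 overlaps across the 4 groups.

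The aspartate tRNA gene MT-TD (ENSG00000210154), which lies between MT-TS1 and MT-CO2, had 34.98, 42.2 and 41.6 CPM in the 18DS libraries and 30.8, 28.99 and 36.2 CPM in the BKM120 libraries. MT-TD had 32.9, 27.7 and 28.8 CPM in the JQ1 libraries and 18.6, 23.3 and 22.9 CPM in the DMSO libraries. All 9 libraries with a compound lay above DMSO, the 18DS libraries overlapped with BKM120 at 1 library, and the counts behind this gene are low. The log2 fold change against DMSO was 0.87 for 18DS (SE 0.12, edgeR adjusted p = 2.32e-06), 0.56 for BKM120 (SE 0.13, edgeR adjusted p = 0.00363) and 0.47 for JQ1 (SE 0.13, edgeR adjusted p = 0.0199). The JQ1 call was lost without DMSO replicate 1 or JQ1 replicate 1 (edgeR adjusted p up to 0.143). MT-TD was called in both 6 against 6 contrasts, at 0.49 (SE 0.087) for PI3K inhibition and 0.39 (SE 0.087) for BET inhibition.

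The serine tRNA gene MT-TS1 (ENSG00000210151) had 1290.5, 1412 and 1189 CPM in the 18DS libraries and 1224, 1130.3 and 1342 CPM in the BKM120 libraries. MT-TS1 had 1132, 1278 and 1277 CPM in the JQ1 libraries and 872, 967 and 1022 CPM in the DMSO libraries. The 9 libraries with a compound all lay above DMSO and overlapped among themselves. Its log2 fold change against DMSO was 0.44 for 18DS (SE 0.078, edgeR adjusted p = 6.52e-05), 0.37 for BKM120 (SE 0.078, edgeR adjusted p = 0.00191) and 0.37 for JQ1 (SE 0.078, edgeR adjusted p = 0.00191). MT-TS1 is annotated on the minus strand just after MT-CO1 on the plus strand, and the strand setting of the counting is not given in the sources used here, so reads of MT-TS1 and of MT-CO1 transcripts that run past their end cannot be told apart.

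The lysine tRNA gene MT-TK (ENSG00000210156), between MT-CO2 and MT-ATP8, had 8.57, 14.5 and 12.6 CPM in the 18DS libraries and 15.1, 13.4 and 9.85 CPM in the BKM120 libraries. MT-TK had 8.92, 6.71 and 9.94 CPM in the JQ1 libraries and 6.61, 7.55 and 7.47 CPM in the DMSO libraries. All 6 libraries with a PI3K inhibitor lay above the 3 DMSO libraries, and the JQ1 libraries overlapped with those of the other 3 groups. The counts behind MT-TK are low, 37 to 94 per library. The log2 fold change of MT-TK was 0.83 for BKM120 (SE 0.21, edgeR adjusted p = 0.00909) and 0.71 for 18DS (SE 0.21, edgeR adjusted p = 0.0135) against DMSO. The BKM120 call was lost when BKM120 replicate 1 or DMSO replicate 1 was left out (edgeR adjusted p up to 0.0860), and the 18DS call without 18DS replicate 2 or 3 or DMSO replicate 1 (edgeR adjusted p up to 0.0888).

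The other 7 tRNA genes higher in 18DS than in DMSO were those for serine (MT-TS2, 0.75), tryptophan (MT-TW, 0.73), histidine (MT-TH, 0.65), tyrosine (MT-TY, 0.37), glutamate (MT-TE, 0.34), threonine (MT-TT, 0.31) and proline (MT-TP, 0.30). In BKM120 against DMSO, MT-TY (0.32) and the valine tRNA gene MT-TV (0.50) were called in addition to MT-TG, MT-TD, MT-TS1 and MT-TK. The 6 against 6 contrast for PI3K inhibition added the leucine tRNA gene MT-TL1 (0.50, SE 0.12) and the isoleucine tRNA gene MT-TI (0.15, SE 0.051). Single libraries decided several of these calls. In 18DS the call of MT-TW ended without DMSO replicate 1 or 3, that of MT-TT without 18DS replicate 3 or DMSO replicate 2 or 3, and that of MT-TP without 18DS replicate 2. Scaling by library totals only also ended those of MT-TT and MT-TP. In BKM120 the call of MT-TY ended without BKM120 replicate 3 or DMSO replicate 1, and that of MT-TV without BKM120 replicate 1 or 3 or DMSO replicate 1 or 3. For PI3K inhibition the call of MT-TI ended without any 1 of 7 libraries (18DS replicate 3, BKM120 replicates 1 and 3, DMSO replicates 2 and 3, JQ1 replicates 1 and 2). That call also ended with library totals only, with no expression filter and without both libraries that stood apart. The calls of MT-TE (0.16) and MT-TP (0.18) for PI3K inhibition were lost under 15 and 14 settings. DESeq2, limma-voom and a replicate block were among these settings. Those of MT-TH (0.30) and MT-TS2 (0.43) were lost under 8 and 6 settings, and those of MT-TT and MT-TV under 1 each. The genes for phenylalanine (MT-TF), methionine (MT-TM), glutamine (MT-TQ), alanine (MT-TA), asparagine (MT-TN), cysteine (MT-TC), arginine (MT-TR) and leucine (MT-TL2) passed no test in the 7 contrasts. Their log2 fold changes for PI3K inhibition ran between -0.081 in MT-TN and 0.36 in MT-TM.

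MT-TL1 (ENSG00000209082), which lies between MT-RNR2 and MT-ND1, had 1249, 1767 and 1503 CPM in the 18DS libraries and 1422, 1263 and 1793 CPM in the BKM120 libraries. MT-TL1 had 1105, 1046 and 1108 CPM in the JQ1 libraries and 836, 1114 and 1171 CPM in the DMSO libraries. The 6 libraries with a PI3K inhibitor lay above the other 6, and 18DS replicate 2 and BKM120 replicate 3 were highest. Against DMSO alone its log2 fold change was 0.53 for 18DS (SE 0.17, edgeR adjusted p = 0.0615) and 0.52 for BKM120 (SE 0.17, edgeR adjusted p = 0.108), neither past the threshold. The 6 against 6 call was lost with no expression filter and without 18DS replicate 2 or JQ1 replicate 2 or 3 (edgeR adjusted p up to 0.0584).

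MT-TC (ENSG00000210140), whose sequence is given above as a comparison, had 449, 476 and 404 CPM in the 18DS libraries and 424, 439 and 441 CPM in the BKM120 libraries. MT-TC had 449.9, 488 and 468 CPM in the JQ1 libraries and 401, 427 and 397 CPM in the DMSO libraries. The groups with a PI3K inhibitor overlapped with DMSO, and the JQ1 libraries lay above DMSO. The log2 fold change was 0.0055 with PI3K inhibition (95% interval -0.098 to 0.11) and 0.20 for JQ1 against DMSO (SE 0.072, edgeR adjusted p = 0.0996).

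**Figure D4:**
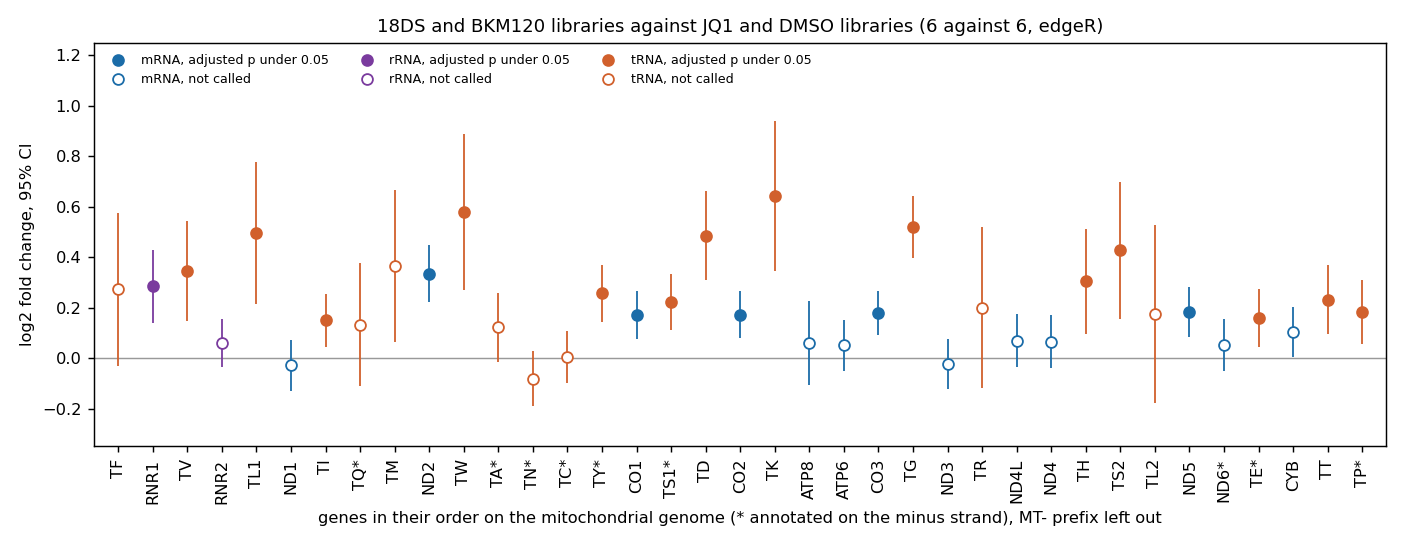
Points give the log2 fold change of 18DS and BKM120 libraries against JQ1 and DMSO libraries (6 against 6) for the 37 genes in genome order, with 95% confidence intervals, filled where the edgeR adjusted p was under 0.05 and coloured by RNA class. MT-TL1 (0.50) and MT-TW (0.58) stand above direct neighbours such as MT-ND1 (-0.029) and MT-TA (0.12), and 3 of the 4 minus-strand tRNAs between MT-TW and MT-CO1 are not called.

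In genome order, direct neighbours gave unlike values. MT-TL1 had a log2 fold change of 0.50 with PI3K inhibition (95% interval 0.22 to 0.78), between MT-RNR2 at 0.059 (-0.036 to 0.15) and MT-ND1 at -0.029 (-0.13 to 0.071), and these intervals did not overlap. MT-ND2 at 0.34 was followed by MT-TW at 0.58 (SE 0.14, edgeR adjusted p = 0.0195), both on the plus strand. The MT-TW call ended without DMSO replicate 1. The next 4 genes lie on the minus strand, and of these MT-TA (0.12), MT-TN (-0.081) and MT-TC (0.0055) were not called, whereas MT-TY (0.26), which overlaps MT-TC by its annotation and borders MT-CO1, was. Between MT-CO1 and MT-CO3, MT-TD (0.49) and MT-TK (0.64) stood above MT-CO2 (0.17), MT-ATP8 (0.060) and MT-ATP6 (0.050). Counts of these tRNA genes are low, 127 to 264 per library for MT-TD and 37 to 94 for MT-TK.

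By strand, 10 of the 14 plus-strand tRNA genes rose with PI3K inhibition (median log2 fold change 0.36), and 4 of the 8 minus-strand ones did (median 0.15). Of all tested genes 8.35% were called higher in this contrast. Over the 22 tRNA genes, Spearman's rho of the log2 fold change for PI3K inhibition was 0.54 with the percent of A in the gene, 0.34 with the length of its longest A run and -0.17 with its counts, as a description across genes that share libraries and precursors. The separate parts of strand and base content were not tested.

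18DS and JQ1 were given at the same dose of 250 nM, so this pair was compared directly. 18DS was higher in 4 members (MT-TG, MT-TD, MT-ND2 and MT-CO2) and lower in 0, where 2.37% of all tested genes were called higher, 1.79% lower and 4.17% in either direction. The libraries of these groups did not overlap in 14 members (24.0% of all tested genes). The log2 difference was 0.48 in MT-TG (SE 0.085, edgeR adjusted p = 0.00138), 0.41 in MT-TD (SE 0.12, edgeR adjusted p = 0.0452), 0.27 in MT-ND2 (SE 0.079, edgeR adjusted p = 0.0448) and 0.22 in MT-CO2 (SE 0.064, edgeR adjusted p = 0.0412). No difference was called for MT-TS1 (0.077, 95% interval -0.080 to 0.23), MT-CO1 (0.096, -0.040 to 0.23), MT-ND1 (-0.012, -0.15 to 0.13) or MT-RNR2 (-0.0035, -0.14 to 0.13). The count was 1 without 18DS replicate 2, 18DS replicate 3, JQ1 replicate 2, JQ1 replicate 3 or DMSO replicate 2, and also without both libraries that stood apart, and it was 2 without JQ1 replicate 1, BKM120 replicate 1 or DMSO replicate 3. MT-TG was called in each of these. Over all tested genes 549 were called with all libraries. The fits with a count of 1 called 215, 159, 123, 105, 424 and 291, in the order given. Those with a count of 2 called 317, 479 and 492. BKM120 was given at another dose, and against DMSO it gave 0.56 in MT-TG and 0.40 in MT-ND2, beside 0.58 and 0.36 for 18DS.

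Whether the 18DS change equals the JQ1 change plus the BKM120 change was tested as an interaction on log2 values. It was called for 0 of 37 members by edgeR, by DESeq2 and by limma-voom, where 0.121% of all tested genes were called by edgeR (0.0683% above the sum and 0.0531% below it), and edgeR gave 1 member, MT-TS1, at an unadjusted p under 0.05. MT-TS1, named after its values were seen, had a departure of -0.29 (95% interval -0.51 to -0.070, edgeR adjusted p = 0.415), where BKM120 and JQ1 each gave 0.37 and 18DS gave 0.44 against DMSO. In MT-TG the departure was -0.078 (95% interval -0.32 to 0.17) and in MT-ND2 -0.13 (-0.36 to 0.097), and these intervals leave room for departures as wide as most of the differences measured here. The median departure of the 37 members was -0.13, with 6 of 37 above 0 and 1 of 22 tRNAs, beside a median of -0.00026 and 6579 of 13180 above 0 over all tested genes.

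BET inhibition, taken as the 18DS and JQ1 libraries against the BKM120 and DMSO libraries, raised MT-TD (0.39), MT-TH (0.35), MT-TS1 (0.22) and MT-TE (0.18). MT-TH had 80.1, 103 and 78.1 CPM in the 18DS libraries and 69.8, 54.9 and 83.8 CPM in the BKM120 libraries. MT-TH had 68.8, 68.2 and 76.7 CPM in the JQ1 libraries and 48.01, 59.2 and 59.3 CPM in the DMSO libraries. The 18DS and JQ1 libraries lay above the DMSO libraries and overlapped with BKM120, and the contrast had an SE of 0.098 and an edgeR adjusted p of 0.0196. The call of MT-TE ended without 18DS replicate 2, BKM120 replicate 1, DMSO replicate 2 or JQ1 replicate 2 or 3. It also ended with scaling by library totals only and without both libraries that stood apart. No mRNA or rRNA was called, and MT-RNR1 had a log2 fold change of -0.16 (95% interval -0.30 to -0.011).

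Nuclear pseudogene copies of the mitochondrial genes can take reads of the mRNAs. Copies of MT-ND1 had 88.4% to 92.2% as many counts as MT-ND1 itself per library, nearly all in MTND1P23, copies of MT-CO1 74.7% to 78.3%, of MT-ND4L 65.3% to 71.5%, of MT-CO2 32.9% to 48.4%, of MT-ATP6 29.5% to 40.9% and of MT-ND2 28.3% to 33.5%. Copies of MT-CO3 had at most 1.68%, of MT-CYB 0.457% and of MT-ND3 0.0254% as many counts. Levels of MT-ND1, MT-CO1, MT-ND4L, MT-CO2, MT-ATP6 and MT-ND2 are uncertain by such amounts. With the counts of the copies added to their mitochondrial gene, 20 members were again called higher with PI3K inhibition, 15 in 18DS and 12 in BKM120 against DMSO.

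A second list held nuclear genes that transcribe mitochondrial DNA or process and modify its RNA, of which 54 were tested. Against DMSO, 5 rose and 17 fell in 18DS, where 9.95% of all tested genes were called higher and 11.0% lower. In BKM120 1 rose and 10 fell, where 4.07% were called higher and 4.14% lower, and in JQ1 0 rose and 4 fell, where 2.63% were called higher and 3.45% lower. The 10 were 3 without BKM120 replicate 1, 4 without BKM120 replicate 3 and 4 without DMSO replicate 1. The same fits called 552, 487 and 531 of all tested genes in either direction, beside 1082 with all libraries. The median log2 fold change of the list was -0.29 in 18DS, -0.14 in BKM120 and -0.20 in JQ1. MTPAP, the poly(A) polymerase that tails the mitochondrial mRNAs, averaged 26.4 ± 4.51 CPM in 18DS, 45.6 ± 5.46 in BKM120, 36.96 ± 4.26 in JQ1 and 61.8 ± 0.699 in DMSO (SD, n = 3 each). It fell in each comparison with DMSO, by a log2 fold change of -1.22 in 18DS (SE 0.12, edgeR adjusted p = 5.33e-10), -0.43 in BKM120 (SE 0.11, edgeR adjusted p = 0.0102) and -0.73 in JQ1 (SE 0.11, edgeR adjusted p = 1.77e-05).

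TWNK, the replicative helicase of mitochondrial DNA, averaged 12.1 ± 1.52 CPM in 18DS, 18.1 ± 3.96 in BKM120, 12.9 ± 1.94 in JQ1 and 25.4 ± 2.24 in DMSO, and it too was called lower in the 3 comparisons with DMSO. DDX28, an RNA helicase of mitochondrial ribosome assembly, fell in 18DS (-0.91) and BKM120 (-0.41), and so did FASTKD5 (-0.88 and -0.72), which acts at mRNA ends that are not bounded by a tRNA on the same strand. FASTKD2, which binds the large rRNA, had -0.60 in 18DS and -0.50 in BKM120, and GRSF1, a protein of mitochondrial RNA granules, -0.29 and -0.32, all called lower. PPRC1, a coactivator of the PGC-1 family, fell in 18DS (-1.07, SE 0.19) and was not called in BKM120 (-0.51) or JQ1 (-0.39).

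With BET inhibition, PPARGC1A, which encodes the coactivator PGC-1α, averaged 3.11 ± 0.514 CPM in 18DS, 5.83 ± 1.72 in BKM120, 2.71 ± 0.975 in JQ1 and 7.28 ± 1.32 in DMSO and fell in the 6 against 6 contrast (log2 fold change -1.18, SE 0.20). NRF1, a transcription factor of nuclear genes for respiration, rose in 18DS against DMSO (0.63, SE 0.17) and was not called in JQ1 (0.50, SE 0.17). NRF1 had 13.3 to 17.3 CPM in the 6 libraries with a BET inhibitor, all above the 6.48 to 10.9 CPM of the other 6. MRPL12, a mitochondrial ribosomal protein that also binds the mitochondrial RNA polymerase, rose in 18DS (0.33, SE 0.10) and BKM120 (0.46, SE 0.10). SUPV3L1, a helicase of mitochondrial RNA decay, fell in JQ1 (-0.63, SE 0.18). TFAM and POLRMT were named after their values were seen. TFAM, which packages the mitochondrial genome and activates its promoters, fell in 18DS (-0.38, SE 0.099) and BKM120 (-0.32, SE 0.099), and POLRMT, the polymerase itself, was called in no comparison (0.069 in 18DS, 95% interval -0.34 to 0.47). The 18DS calls of TFAM (then -0.25) and GRSF1 ended without 18DS replicate 2, and that of MRPL12 without 18DS replicate 2 or 3 or DMSO replicate 1. Scaling by library totals only also ended the 18DS call of MRPL12. In BKM120 the calls of MTPAP and GRSF1 ended without BKM120 replicate 1 or 3, those of DDX28 and TFAM without either of these or any 1 DMSO library, and that of TWNK without BKM120 replicate 1 or 2 or DMSO replicate 1 or 3. The JQ1 call of SUPV3L1 ended without DMSO replicate 2 or any 1 JQ1 library. DESeq2 did not call TWNK or TFAM in BKM120 or SUPV3L1 in JQ1, and limma-voom did not call TFAM in BKM120. With upper-quartile factors TWNK and TFAM were not called in BKM120 either.

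**Figure D5:**
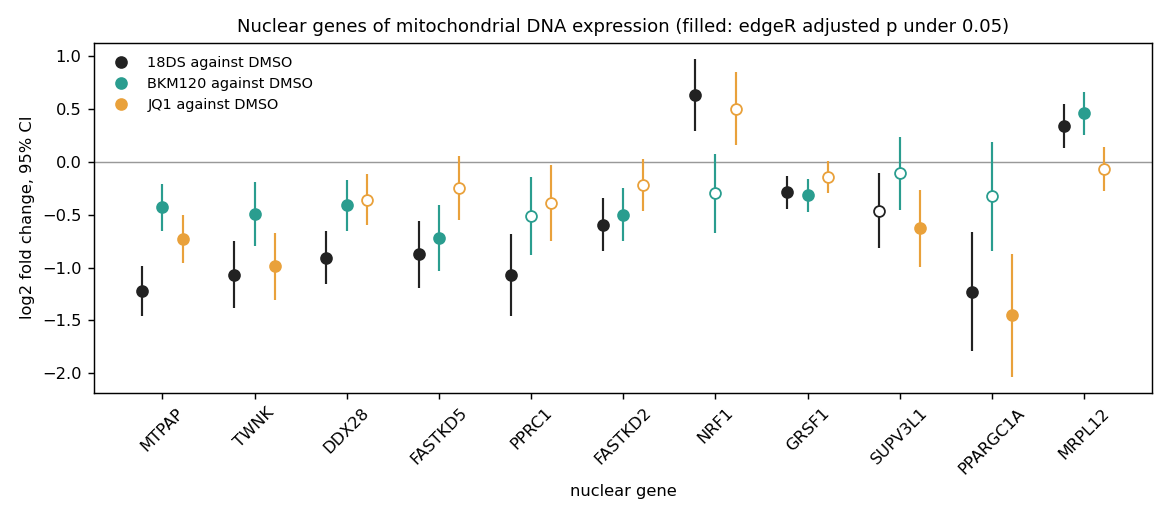
Points give the log2 fold change against DMSO of 11 nuclear genes that act on mitochondrial DNA or its RNA, with 95% confidence intervals, in black for 18DS, green for BKM120 and orange for JQ1, filled where the edgeR adjusted p was under 0.05. MTPAP and TWNK are filled and below 0 for the 3 compounds, and MRPL12 is filled and above 0 for 18DS and BKM120.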

How the data were processed

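The authors deposited raw counts, whole numbers per Ensembl gene with no normalization, for 12 QuantSeq 3′ libraries of 75-base single-end reads, per the labels' protocols. Per the submitters' processing notes, HISAT2 2.1.0, featureCounts, SAMtools 1.9, cutadapt 1.7 and FastQC 0.11.5 were used, as were limma, Subread and bcl2fastq 2.17.1.14, and hg19 was the genome build. Which annotation was used, whether counting used strand and what was done with multi-mapped reads, which decides the split between mitochondrial genes and their nuclear copies, is not given in the sources used here. Symbols came from a table of gene names that matched 51662 of 63152 identifiers and left 11490 without one, and gene order, strand, length and sequences from GENCODE release 29 on GRCh38, another build, so no coordinates are given.

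Genes were kept by filterByExpr (minimum count 10, minimum total 15), which left 13180, and scaled by TMM (factors 0.971 to 1.033). One robust quasi-likelihood fit over 12 libraries in edgeR 4.0.16 (R 4.3.3) tested 7 contrasts with group as the only term, and p-values were adjusted by Benjamini-Hochberg over all tested genes within a contrast. CPM values of genes use TMM-scaled totals. Summed shares have no test. The fit was checked on simulated data. DESeq2 1.42.0 and limma 3.58.1 (voom) were alternatives, as were other scalings and filters, fits with a replicate block and fits without 1 library. Figures used Python 3.11.15 with matplotlib 3.10.9. All 37 members are described, and up to 4 called nuclear genes per contrast with the smallest adjusted p are named. The members, the nuclear list and the tests were chosen with earlier results of these data known.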

Additional observations from a re-analysis of the deposited data

Results flagged for a closer look

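Nuclear pseudogene copies of mitochondrial genes were left out of the comparisons above, and 20 of their contrasts with DMSO passed the edgeR threshold, all higher (log2 fold changes, adjusted p under 0.05 over all tested genes). Of 24 copies tested, 8 were higher in 18DS than in DMSO, where 9.95% of all tested genes were called higher. These were MTND5P10 (1.56), MTND6P3 (1.24), MTCO1P40 (0.68), MTCO2P12 (0.49), MTND5P11 (0.36), MTND4P12 (0.31), MTCO1P12 (0.29) and MTCO3P12 (0.22). In BKM120, where 4.07% of all tested genes were called higher, 10 copies were higher than in DMSO, which were MTND6P3 (1.30), MTCO2P22 (1.24), MTCO1P40 (1.01), MTCYBP18 (1.01), MTND5P11 (0.64), MTATP8P1 (0.55), MTND4P12 (0.44), MTCO2P12 (0.40), MTND2P28 (0.26) and MTCO1P12 (0.22). In JQ1, where 2.63% were called higher, 2 copies were higher than in DMSO, MTCO1P40 (0.57) and MTCO1P12 (0.23). MTCO2P12 held 207115 counts over the 12 libraries and MTCO1P12 held 98670, beside 525 in MTCYBP18 and 1819 in MTND5P11. All copies of MT-ND5 together held 2083, so MTND5P10 had few counts. The largest fold changes were imprecise. Their SE was 0.46 for MTND5P10 in 18DS, 0.33 for MTND6P3 in 18DS and in BKM120, and 0.38 for MTCO2P22 in BKM120. Whether reads of the copies come from the mitochondrial or the nuclear locus was not tested.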

How the results depend on the processing

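No alternative changed the direction of the 56 called values of members or of the 65 of the nuclear list. Of 203 values of members that were not called, 55 changed sign under at least 1 alternative, all of them at most 0.20 in size as reported, among them MT-RNR2 in 18DS against DMSO and MT-TC with PI3K inhibition. For JQ1 against DMSO the count of members called, 2, was 4 with upper-quartile factors, 4 with no expression filter, 6 without both libraries that stood apart and 9 with the 2 groups compared alone, where the spread comes from 6 libraries. Over all tested genes 801 were called, and these settings called 792, 796, 1080 and 1102. For 18DS against JQ1 the count, 4, was 1 with library totals, 1 without both libraries that stood apart and 2 with a replicate block. Over all tested genes 549 were called, and these settings called 622, 291 and 522. When each library was left out in turn, the count ranged from 13 to 18 for 18DS against DMSO, 5 to 15 for BKM120 against DMSO, 1 to 4 for JQ1 against DMSO, 1 to 6 for 18DS against JQ1, 14 to 21 for PI3K inhibition, 3 to 5 for BET inhibition and 0 to 0 for the departure. MT-RNR1 was called lower with BET inhibition under 4 settings, at -0.16 with no expression filter, -0.16 without both libraries that stood apart, -0.22 without 18DS replicate 2 and -0.20 without BKM120 replicate 2. The difference in mitochondrial share ranged from 0.295 to 0.627 percentage points for 18DS minus DMSO, 0.492 to 0.821 for BKM120 and 0.0690 to 0.290 for JQ1, and with the 13 mRNAs only it was 0.343 for BKM120. The difference in tRNA share of mitochondrial counts ranged from 0.932 to 1.48 points for 18DS, 0.694 to 1.36 for BKM120 and 0.328 to 0.871 for JQ1. The cause of these shifts was not tested. The settings without both libraries that stood apart and with pseudogene copies merged, and those on the composition of the counts that left out rRNAs or single libraries, were chosen after seeing the data.

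Under every setting, leaving out libraries included, 11 of 15 genes stayed called for 18DS against DMSO, 4 of 11 for BKM120 against DMSO (MT-ND2, MT-TD, MT-TG and MT-TS1), 1 of 2 for JQ1 (MT-TS1), 1 of 4 for 18DS against JQ1 (MT-TG), 3 of 4 for BET inhibition (MT-TD, MT-TH and MT-TS1) and 9 of 20 for PI3K inhibition (MT-CO2, MT-CO3, MT-ND2, MT-ND5, MT-TD, MT-TG, MT-TK, MT-TS1 and MT-TY). Over 18 same-numbered pairs the correlation of deviations ran between -0.128 and 0.0919, and 4 of 12 libraries correlated best with their own number. Over 36 pairs with unlike numbers it ran between -0.118 and 0.148. Replicate numbers thus showed no pairing of samples here. The labels do not state one, and these correlations cannot exclude one, since they weigh low and high genes alike. The replicate block left the other counts within 1.5 times. All results come from 3 libraries per group of 1 line. The edgeR p-values measure the spread between libraries within the 4 groups together, drawn for each gene towards the spread of other genes.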
